A study of Arabidopsis thaliana with 24 samples.

Results

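The red light response of H3K9ac, a histone acetylation mark found over the 5′ part of transcribed genes, was compared between pifq and wild type (wt) Arabidopsis seedlings. For every peak of the deposited table, 19435 entries that assign 17319 distinct peaks to 17672 genes, the log2 change in pifq after 1 h of red light was subtracted from that in wt. No peak was picked by its values. The comparison rests on 12 of the 24 samples of the study, 3 H3K9ac libraries for each of 4 groups, and the remaining samples are 6 H3K9ac libraries from white light and 6 inputs. All seedlings were of the Columbia-0 ecotype, 2 days old and grown at 21 ºC without sucrose, after stratification for 4 days at 4 ºC. Per the methods, seeds of the dark and red light groups then received white light to induce germination and a far-red pulse before darkness. The pifq mutant carries mutations in the 4 genes PIF1, PIF3, PIF4 and PIF5. Red light groups (pifq R1h and wt R1h) were kept in darkness for 47 h. They were then given red light of 10 µE per square metre and second for 1 h. Dark groups (pifq D and wt D) stayed in darkness. Whole seedlings were used, so fewer cells with the mark and less mark per cell cannot be told apart.

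PHYTOCHROME INTERACTING FACTORS (PIFs) are basic helix-loop-helix transcription factors that bind the G-box CACGTG and the PIF binding element CACATG and maintain the growth habit of dark-grown seedlings. Red light converts the phytochrome photoreceptors to their active form, which binds the PIFs and leads to their rapid degradation. Seedlings that lack the PIF quartet look in darkness much like seedlings grown in light, and red light can still act on them through phytochrome. Acetylation of lysine 9 of histone H3 accompanies transcription, and its gain or loss at a gene often goes with a change of the gene's mRNA.

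For each peak and group, the table of the authors holds 1 pooled signal, per bp of peak, and no value per library. No SD, n, p or test can therefore be given, and no difference below has a replicate check. Sequencing depth is unknown. Column medians lay between 0.711 and 0.715 in the 4 groups, so the groups stood on one scale at the median. Between 21 and 79 entries of a column lie at its floor, the lowest product of signal and peak length in that column. The signal of an entry at the floor therefore depends on its peak length. A log2 change is the log2 ratio of R1h to D after 0.0717, which is 0.1 of the median of all values, was added to each signal, and it makes the change of weakly marked peaks look smaller than it was. The difference of responses is the change in wt minus the change in pifq, so a positive value means a higher change in wt. A peak is said to have gained or lost H3K9ac, or to differ in response, where the value reaches 1.5-fold (0.58 on the log2 scale).

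Upstream sequences of 5 genes that the results below turn on are shown because each holds a motif that PIFs bind. They are the 250 bases before the annotated start in the TAIR10.1 reference from RefSeq, read 5′ to 3′ on the strand of the gene, with motifs in capitals. These are the G-box, CACGTG, and the PIF binding element, which reads CACATG on one strand and CATGTG on the other. Many genes named below hold neither motif in these 250 bases and are not shown. PIL1, RPT2, BBX25, GA2OX1, SPA1, BEE3, ETR2 and LHCB1.1 are among them, while others not shown, such as IAA19 and LNK3, hold both. F3H, CHIL and SIGE gained more H3K9ac in wt than in pifq, PRR9 gained it in both genotypes, and ACS8 lost more of it in wt. The windows are chr3:19024942-19025191 (plus strand) for F3H, chr5:1563036-1563285 (plus) for CHIL, chr5:8160344-8160593 (minus) for SIGE, chr2:19232357-19232606 (plus) for PRR9 and chr4:17751829-17752078 (plus) for ACS8.
F3H: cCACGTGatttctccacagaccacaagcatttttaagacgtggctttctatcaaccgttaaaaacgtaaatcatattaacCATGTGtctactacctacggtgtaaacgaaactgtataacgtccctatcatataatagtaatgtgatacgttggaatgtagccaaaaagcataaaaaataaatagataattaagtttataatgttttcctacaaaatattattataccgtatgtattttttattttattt
CHIL: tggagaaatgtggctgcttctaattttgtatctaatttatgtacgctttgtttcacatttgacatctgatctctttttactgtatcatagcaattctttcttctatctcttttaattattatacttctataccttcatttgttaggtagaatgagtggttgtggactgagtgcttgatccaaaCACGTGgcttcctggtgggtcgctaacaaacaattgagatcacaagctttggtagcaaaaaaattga
SIGE: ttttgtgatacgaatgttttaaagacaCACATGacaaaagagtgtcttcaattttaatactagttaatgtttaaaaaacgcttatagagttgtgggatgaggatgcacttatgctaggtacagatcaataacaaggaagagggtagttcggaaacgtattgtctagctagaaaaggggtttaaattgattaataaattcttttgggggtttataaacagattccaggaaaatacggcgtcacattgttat
PRR9: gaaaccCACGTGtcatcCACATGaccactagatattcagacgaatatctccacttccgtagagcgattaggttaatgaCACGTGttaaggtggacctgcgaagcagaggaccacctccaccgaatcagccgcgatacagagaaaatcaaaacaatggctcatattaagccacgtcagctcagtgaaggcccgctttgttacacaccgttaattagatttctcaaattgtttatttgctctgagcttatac
ACS8: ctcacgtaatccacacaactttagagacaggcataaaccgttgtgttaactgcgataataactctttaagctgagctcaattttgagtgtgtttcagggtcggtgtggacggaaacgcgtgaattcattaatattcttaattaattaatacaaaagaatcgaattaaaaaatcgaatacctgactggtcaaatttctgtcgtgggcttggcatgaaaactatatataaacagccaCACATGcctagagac

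The loci of the quartet came first as a check of the genotypes, although the mark at a mutated locus does not say whether the gene works. PIF3 had a signal of 0.223 in pifq R1h and 0.214 in pifq D, and 0.856 in wt R1h and 1.018 in wt D. PIF1 had 0.514 in pifq R1h and 0.557 in pifq D, and 0.947 in wt R1h and 0.964 in wt D. Both loci were thus lower in pifq with and without red light. PIF4 lay between 0.899 and 0.907 in the pifq groups and between 0.617 and 0.745 in the wt groups, and PIF5 between 0.633 and 0.671 in pifq and between 0.683 and 0.773 in wt. None of the 4 loci gained or lost H3K9ac after red light in either genotype, and their differences of responses ranged from -0.28 for PIF3 to 0.26 for PIF4.

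Red light changed H3K9ac in fewer peaks of pifq than of wt. In pifq, 350 entries gained H3K9ac (1.8% of all entries) and 122 lost it (0.628%). In wt, 850 gained it (4.37%) and 167 lost it (0.859%). After quantile normalization of the 4 columns, 345 gained and 153 lost it in pifq, and 516 gained and 338 lost it in wt. With 0.01 of the median added to each signal in place of 0.1, 476 gained and 243 lost it in pifq. In wt, 1068 gained and 254 lost it under that setting, so the numbers of losses were then close in the genotypes. The central part of the distribution was similar in both genotypes, with quartiles of -0.08 and 0.08 in pifq and of -0.10 and 0.12 in wt on the log2 scale. Over all entries, the changes in pifq and wt had a Pearson correlation of 0.632 and a Spearman correlation of 0.530, as a description across peaks that share their lengths and the authors' scaling between groups.

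Most peaks that gained in wt shifted the same way in pifq, by less. Among the 850 entries that gained in wt, the change in pifq was positive in 760 (89.4%) and reached 1.5-fold in 270 (31.8%). Their median log2 change was 0.42 in pifq and 0.88 in wt. Among the 167 entries that lost in wt, the change in pifq was negative in 149 (89.2%) and reached 1.5-fold in 23 (13.8%), with medians of -0.29 in pifq and -0.74 in wt. These entries were picked by their change in wt, which favours a larger value there. Picked from the other side, 270 of the 350 entries that gained in pifq also gained in wt (77.1%), whereas 23 of the 122 that lost in pifq also lost in wt (18.9%).

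**Figure D1:**
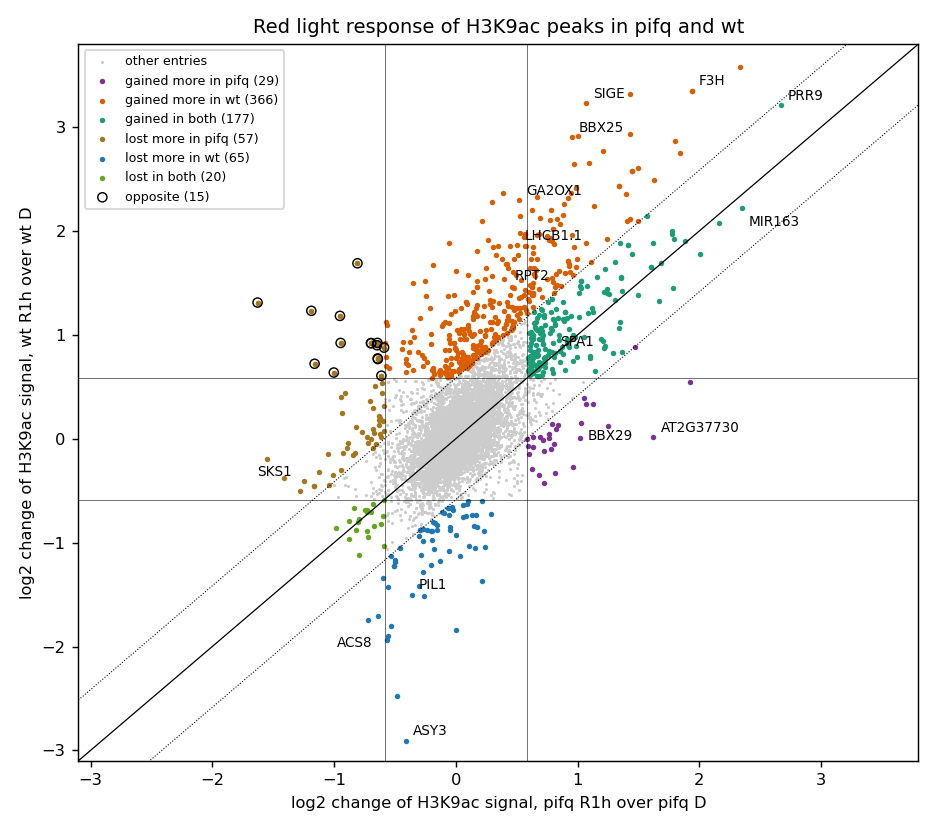
Log2 change of H3K9ac signal after 1 h of red light in pifq (x axis) and wt (y axis), with 1 point per entry and classes in colour (number of entries in brackets). The solid diagonal marks equal changes and the dotted lines a difference of responses of 1.5-fold. The 15 circled entries gained in wt and lost in pifq and belong to both of those classes. PRR9 and MIR163 lie near the diagonal, SIGE and BBX25 far above it, and PIL1 and ASY3 far below it.

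The difference of responses itself was past 1.5-fold upward in 500 entries (2.57%) and downward in 137 (0.705%), so that 78.5% of such entries had the higher change in wt. This split depends on the processing. It was 67.8% with a pseudocount of 0.5 of the median, 65.1% without the 25.0% of peaks with the lowest mean signal, and 44.4% after quantile normalization. Differences sat mainly at peaks with little signal, as 446 of the 500 upward entries and 108 of the 137 downward entries fell in the lowest of 4 equal bins of mean signal. In the highest bin there were 2 downward entries and no upward one. The spread of the difference over all entries also narrowed with signal, with an interquartile range of 0.354 in the lowest and 0.119 in the highest bin.

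**Figure D2:**
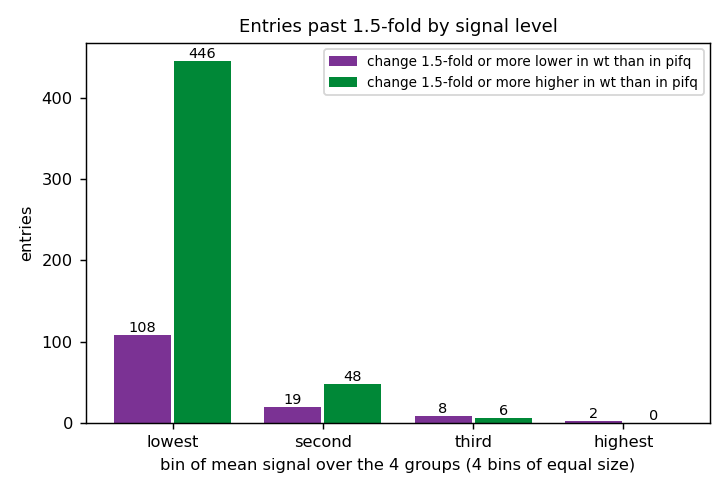
Number of entries (y axis) whose red light change was at least 1.5-fold lower or higher in wt than in pifq, by bin of mean signal over the 4 groups (x axis, 4 bins of equal size). Counts fall with signal, and the excess on the wt side is seen in the lower bins only, with 108 entries lower and 446 higher in wt in the lowest bin and 8 and 6 in the third.

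Entries were sorted into classes by the changes in pifq and wt and by their difference. H3K9ac gained more in wt at 366 entries (1.88%), in both genotypes to a similar degree at 177 (0.911%) and more in pifq at 29 (0.149%). It was lost more in wt at 65 entries (0.334%), in both at 20 (0.103%) and more in pifq at 57 (0.293%). A further 482 entries (2.48%) changed in at least 1 genotype without being separable into these classes, and 15 (0.0772%) changed in opposite directions, each of which also belongs to the entries that gained more in wt and to those lost more in pifq. Since the classes are defined by the values, what follows describes them and tests nothing.

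Peaks that gained more in wt mostly already carried the mark in dark pifq. Their median signal was 0.466 in pifq R1h and 0.352 in pifq D, and 0.364 in wt R1h and 0.103 in wt D. In 268 of the 366 entries, the dark pifq signal came within 1.5-fold of the wt R1h signal or exceeded it. The dark pifq level enters the difference of responses too, so this count splits the class and is no separate support for it. The other 98 entries were low in darkness in both genotypes, with medians of 0.312 in pifq R1h, 0.124 in pifq D, 0.493 in wt R1h and 0.0749 in wt D. At 62 of the 366 entries, pifq R1h stayed at least 1.5-fold below wt R1h, and at 92 pifq itself gained at least 1.5-fold.

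The classes also differed in their levels in continuous white light (WLc), whose columns take no part in the differences. Peaks that gained more in wt had a median of 0.581 in pifq WLc and 0.562 in wt WLc, and 91.8% of them lay within 1.5-fold of each other in the 2 genotypes. That share was 96.0% for peaks that gained in both, 75.9% for those that gained more in pifq, 73.8% for those lost more in wt and 98.4% over all entries. Of the 65 peaks lost more in wt, 11 were higher and 6 lower in pifq WLc than in wt WLc by 1.5-fold, against 1.25% and 0.334% of all entries.

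**Figure D3:**
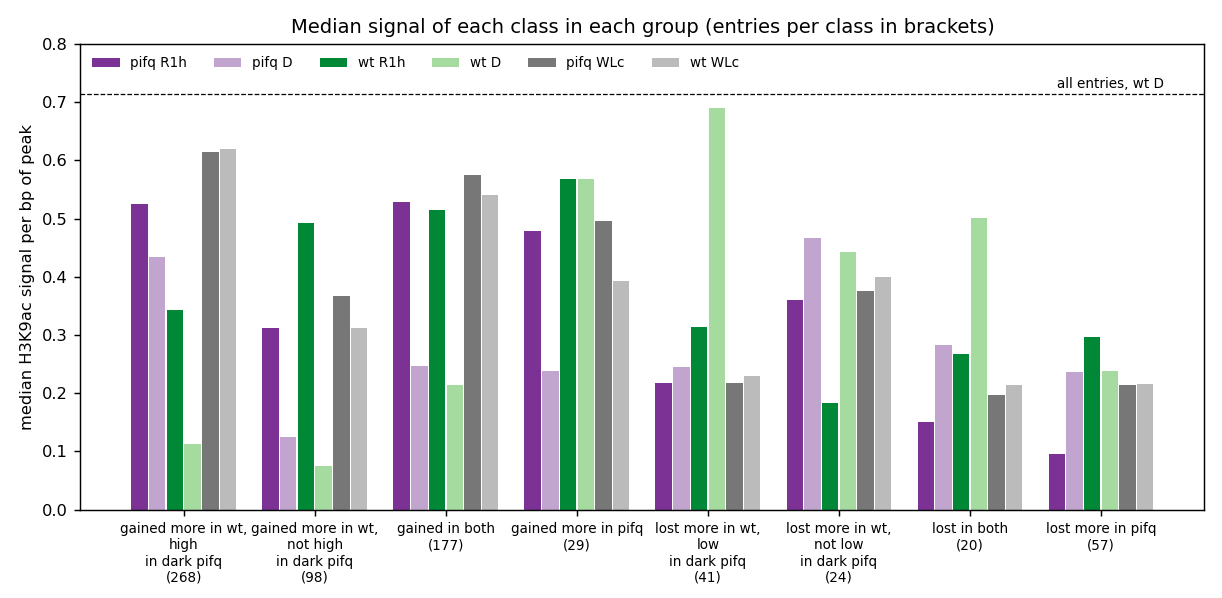
Median H3K9ac signal per bp of peak (y axis) of each class of red light response (x axis, number of entries in brackets) in pifq R1h, pifq D, wt R1h, wt D, pifq WLc and wt WLc. The dashed line is the median of all entries in wt D. The 268 entries that gained more in wt and were high in dark pifq stand at 0.434 in pifq D and 0.112 in wt D.

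Plastid and light signalling genes were among those with the largest differences in favour of wt. SIGE (AT5G24120, peak chr5:8158872-8160482), which encodes a sigma factor of the plastid RNA polymerase, had 0.385 in pifq R1h and 0.146 in pifq D, and 0.654 in wt R1h and 0.006 in wt D. It gained in both genotypes, by 1.07 in pifq and 3.23 in wt on the log2 scale, with a difference of 2.15. BBX25 (AT2G31380), a B-box transcription factor gene, had 0.854 in pifq R1h and 0.407 in pifq D, and 0.624 in wt R1h and 0.021 in wt D. Here pifq ended above wt in red light, although the log2 change was 0.95 in pifq and 2.91 in wt. BBX16, another B-box gene, had 0.720 in pifq R1h and 0.571 in pifq D, against 0.279 in wt R1h, while wt D lay at the floor. Its difference of 1.98 depends on the pseudocount for that reason. COL2, a CONSTANS-like gene, gained by 0.47 in pifq and 1.60 in wt. Its neighbour AT3G02390 stood at 0.712 in pifq R1h and 0.742 in pifq D, and 0.395 in wt R1h and 0.055 in wt D.

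RPT2 and GA2OX1 had large differences of distinct shape. RPT2 (AT2G30520), which acts in phototropin signalling, had 0.747 in pifq R1h and 0.538 in pifq D, and 0.763 in wt R1h and 0.188 in wt D. The red light levels were alike and the dark levels were not, which gives changes of 0.42 in pifq and 1.68 in wt. GA2OX1 (AT1G78440), a gibberellin 2-oxidase that inactivates gibberellins, had 0.346 in pifq R1h and 0.220 in pifq D, and 0.928 in wt R1h and 0.132 in wt D. At this gene pifq stayed low in red light, and the change was 0.52 in pifq and 2.30 in wt. In WLc, GA2OX1 had 0.315 in pifq and 0.006 in wt. PIF7, a bHLH factor gene outside the quartet, had 0.926 in pifq R1h and 0.620 in pifq D, against 0.215 in wt R1h, with wt D at the floor. Its difference was 1.46, and 0.28 with a pseudocount of 0.5 of the median.

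The remaining genes with the largest differences had diverse functions. IQD24, of a calmodulin-binding family, changed by -0.25 in pifq and 1.38 in wt, and AT5G14050 by 0.35 in pifq and 1.86 in wt. PSB28, a photosystem II protein gene, gained by 0.67 in pifq and 1.96 in wt. F3H, which encodes flavanone 3-hydroxylase, had 0.658 in pifq R1h and 0.119 in pifq D, and 1.0995 in wt R1h and 0.043 in wt D. It gained strongly in both genotypes, by 1.94 in pifq and 3.35 in wt. Its peak is also entered for AT3G51238, and reads there cannot be assigned to 1 of the 2 genes. The class that gained more in wt thus held genes that also responded in pifq. Among its largest changes in wt, cPT4, a cis-prenyltransferase gene with wt D at the floor, gained by 2.34 in pifq, ECT5, a YTH domain gene whose peak is shared with AT3G13061, by 1.44. AT1G79520 had 0.375 in pifq R1h and 0.0980 in pifq D, and 0.809 in wt R1h and 0.1005 in wt D.

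**Figure D4:**
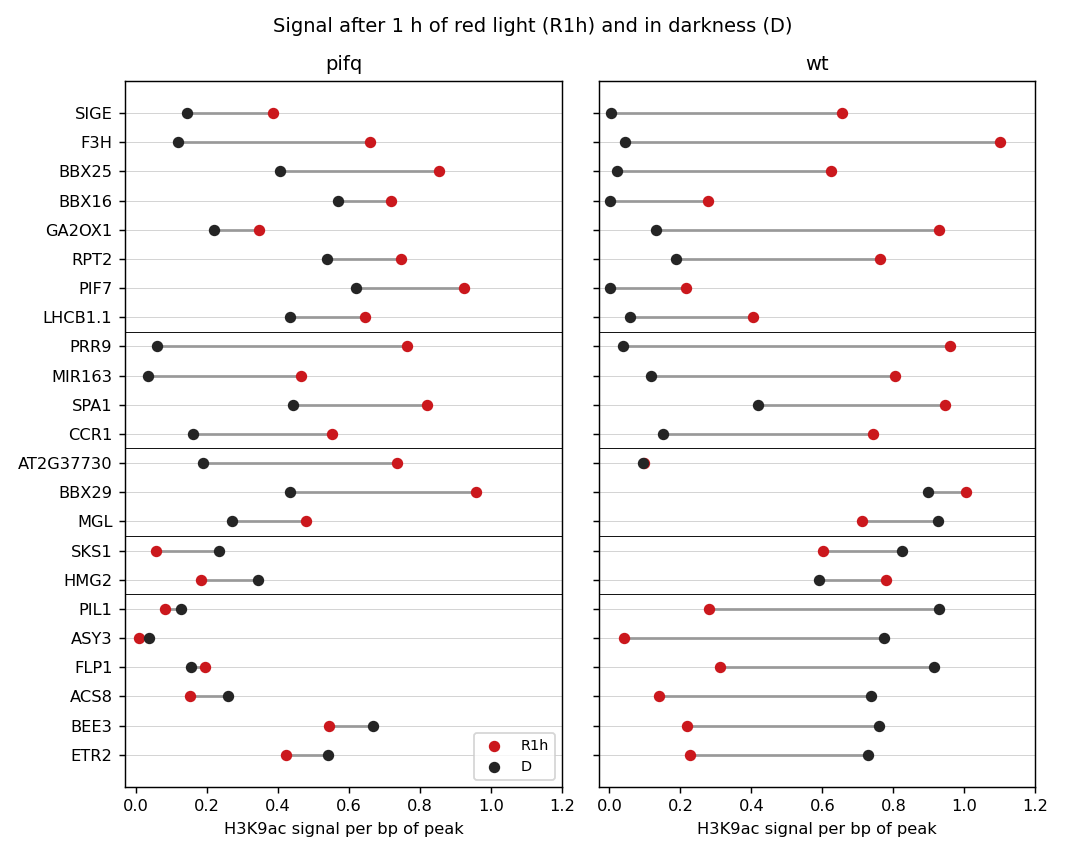
H3K9ac signal per bp of peak (x axis) of named genes after red light (R1h, red) and in darkness (D, black), in pifq (left) and wt (right). From top to bottom, the blocks are genes that gained more in wt, gained in both, gained more in pifq, lost more in pifq and lost more in wt. PRR9 stands at 0.765 in R1h and 0.060 in D in pifq, and at 0.959 in R1h and 0.040 in D in wt.

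Other genes gained H3K9ac to a similar degree without the PIF quartet. PRR9 (AT2G46790, peak chr2:19232695-19233500), a pseudo-response regulator of the circadian clock, had 0.765 in pifq R1h and 0.060 in pifq D, and 0.959 in wt R1h and 0.040 in wt D. The changes were 2.67 in pifq and 3.21 in wt, and the difference of 0.54 lay just below the limit and became 0.84 with a pseudocount of 0.01 of the median. MIR163, a microRNA gene, had 0.467 in pifq R1h and 0.034 in pifq D, and 0.805 in wt R1h and 0.117 in wt D. It gained by 2.35 in pifq and 2.22 in wt, and its difference of -0.13 became -0.81 with the smaller pseudocount and -0.61 after quantile normalization. At these steep gains, the class therefore depends on how the low dark values are treated. SPA1, whose protein works with the ubiquitin ligase COP1, had 0.821 in pifq R1h and 0.443 in pifq D, and 0.944 in wt R1h and 0.419 in wt D, and gained by 0.79 in pifq and 1.05 in wt. CCR1, the cinnamoyl-CoA reductase of lignin synthesis, whose peak is shared with NRAMP6, gained by 1.41 in pifq and 1.86 in wt. UGT74E2, a glucosyltransferase gene, gained by 1.36 in pifq and 1.42 in wt, AT2G19650 by 1.36 in pifq and 1.56 in wt, and AT1G80130 by 1.67 in pifq and 1.33 in wt. AT1G65870 belongs here by its difference of 0.20, but its wt D value lay at the floor. That difference became 2.32 with a pseudocount of 0.01 of the median and 3.82 without a pseudocount. The place of AT1G65870 among these genes therefore rests on the pseudocount.

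A small set gained H3K9ac more in pifq, from a low dark level in the mutant. BBX29, a B-box gene, had 0.957 in pifq R1h and 0.434 in pifq D, and 1.003 in wt R1h and 0.899 in wt D. Red light thus brought pifq near the level that wt had already in darkness, with changes of 1.03 in pifq and 0.15 in wt. AT2G37730 differed from this pattern, with 0.735 in pifq R1h and 0.190 in pifq D, and 0.097 in wt R1h and 0.095 in wt D. SULTR3;1, a sulfate transporter gene, gained by 1.07 in pifq and changed by 0.33 in wt. MGL, the methionine gamma-lyase gene, gained by 0.68 in pifq and changed by -0.35 in wt, and its difference was -1.03. The other named genes of this class, AT5G52020, AT4G28830, AT2G27660, AT3G14320 and NTMC2T4, had differences between -0.66 and -0.85. With a pseudocount of 0.5 of the median, all of these lay within the limit, between -0.39 and -0.55, as did SULTR3;1 at -0.42. Over the 29 entries, the median was 0.478 in pifq R1h and 0.238 in pifq D, and 0.569 in wt R1h and 0.568 in wt D.

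Genes that lost more H3K9ac in wt included shade and ethylene genes. PIL1 (AT2G46970, peak chr2:19295949-19297850), a PIF-like bHLH gene of the shade response, had 0.084 in pifq R1h and 0.128 in pifq D, and 0.282 in wt R1h and 0.929 in wt D. In pifq it was low before and after red light, with a change of -0.36, and the difference of responses was -1.14. The peak entered for ASY3, a meiotic chromosome axis gene next to PIL1, had 0.010 in pifq R1h and 0.036 in pifq D, and 0.041 in wt R1h and 0.773 in wt D, and its difference was -2.50. This peak lies inside ASY3, but its centre is 4.27 kb from the start of ASY3 and 2.14 kb upstream of the start of PIL1, so the gene it belongs to is uncertain. ACS8, an enzyme gene of ethylene synthesis, had 0.153 in pifq R1h and 0.261 in pifq D, and 0.140 in wt R1h and 0.737 in wt D. FLP1, of the flowering promoting factor family, changed by 0.22 in pifq and -1.37 in wt. Dark pifq carried less of the mark than dark wt at each of these 4 loci.

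BEE3 and ETR2 lost H3K9ac in wt from dark levels within 1.5-fold of each other in the genotypes. BEE3, a brassinosteroid-responsive bHLH gene, had 0.545 in pifq R1h and 0.667 in pifq D, and 0.220 in wt R1h and 0.760 in wt D. ETR2, an ethylene receptor gene, had 0.423 in pifq R1h and 0.540 in pifq D, and 0.228 in wt R1h and 0.729 in wt D. The changes were -0.26 in pifq and -1.51 in wt at BEE3, and -0.31 in pifq and -1.42 in wt at ETR2. Of the 65 entries of this class, 41 were within 1.5-fold of the wt R1h level or below it already in dark pifq, and 24 were not. MYB10 changed by -0.60 in pifq and -1.35 in wt, and 1 of the 2 peaks of EXPA9, an expansin gene, by 0.15 in pifq and -0.84 in wt.

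Losses shared by both genotypes or larger in pifq were few at well-marked peaks. Only 3 of the 20 entries lost in both and 4 of the 57 lost more in pifq reached the median of all values in any group, against 12389 of the 19435 entries. AT4G25290 lost by 0.72 in pifq and 0.94 in wt on the log2 scale, and TTL2 by 0.73 in pifq and 0.70 in wt. PDC3, a pyruvate decarboxylase gene, also lost in both, but its pifq R1h value lay at the floor and its difference of -0.15 became 1.43 with a pseudocount of 0.01 of the median. SKS1, an SKU5-similar gene, had 0.057 in pifq R1h and 0.235 in pifq D, and 0.603 in wt R1h and 0.824 in wt D. HMG2, which encodes an HMG-CoA reductase, had 0.183 in pifq R1h and 0.343 in pifq D, and 0.780 in wt R1h and 0.591 in wt D. AT1G10410 changed by -0.89 in pifq and -0.04 in wt, and AT3G11860 by -0.69 in pifq and by less than 0.01 in wt.

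Gene lists were then read with 1 peak per gene, the one with the highest mean signal. On this basis, 323 of 17672 genes differed upward (1.83%) and 103 downward (0.583%), 251 gained in pifq (1.42%) and 600 in wt (3.4%), and 64 lost in pifq (0.362%) and 110 in wt (0.622%). The median difference over all genes was 0.00. In the lists of cytokinin, auxin and carotenoid genes, histone acetyltransferases and deacetylases, heat, touch and wounding genes and reference genes, no member differed by 1.5-fold in either direction. Their medians ranged from -0.11 for heat, touch and wounding to 0.10 for carotenoid synthesis, with 0.00 for the 11 reference genes. HDA15, a histone deacetylase that works with PIF3 in darkness, changed by 0.09 in pifq and -0.10 in wt.

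Genes of the light harvesting antenna, whose proteins bind chlorophyll around the photosystems, had several members with a higher change in wt. Of the 21 genes, 9 differed upward and none downward, none gained in pifq and 11 gained in wt, and the median change was 0.15 in pifq and 0.63 in wt. LHCB1.1 had 0.645 in pifq R1h and 0.434 in pifq D, and 0.403 in wt R1h and 0.059 in wt D. LHCA4 had 0.534 in pifq R1h and 0.540 in pifq D, and 0.364 in wt R1h and 0.158 in wt D, and it lies in a stretch of chromosome 3 where 8.82% of entries differed upward, against 2.44% of all other entries. In both, dark pifq exceeded wt after red light. The differences ran from -0.11 for LHCA2 to 1.36 for LHCB1.1, and LHCB4.2, LHCB6 and LHCB7 were marked in every group and lay within 0.04 of 0. The median difference of the list was 0.48, and it was 0.22 with a pseudocount of 0.5 of the median and 0.14 after quantile normalization. No antenna gene differed by 1.5-fold with that pseudocount, where 49 of all genes differed upward, and 3 did after quantile normalization, where 137 of all genes did. LHCB1.1, LHCB1.2 and LHCB1.3 are near-identical copies, between which reads may have been split in a way that was not tested.

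Other plastid lists had positive median differences, which were smaller than that of antenna genes before quantile normalization. After it, the median was 0.24 for photosystem and electron transport genes and 0.23 for photoprotection genes, against 0.14 for antenna genes. The Calvin-Benson cycle (0.09), tetrapyrrole (0.06) and plastid regulator (0.02) lists stayed below the antenna genes. Photosystem and electron transport genes had a median change of 0.09 in pifq and 0.31 in wt, and none of the 30 genes differed by 1.5-fold, although 28 differences were positive. PETC, the Rieske protein of the cytochrome complex, changed by 0.20 in pifq and 0.68 in wt. Among the 14 Calvin-Benson cycle genes, FBA1, a plastid aldolase gene, differed upward with 0.512 in pifq R1h and 0.266 in pifq D, and 0.318 in wt R1h and 0.032 in wt D. Of the 21 tetrapyrrole genes, 1 differed, GUN5, which encodes the H subunit of magnesium chelatase, with changes of 0.13 in pifq and 0.99 in wt. In the photoprotection list, 2 of 10 genes differed, the early light-induced genes ELIP1 and ELIP2. ELIP1 had 0.166 in pifq R1h and 0.050 in pifq D, and 0.749 in wt R1h and 0.157 in wt D, and ELIP2 had 0.219 in pifq R1h and 0.078 in pifq D, and 0.553 in wt R1h and 0.138 in wt D. Unlike antenna genes, both were lower in pifq than in wt in darkness and in red light. Their differences of 0.88 and 0.62 became 0.56 and 0.24 after quantile normalization, and neither differed without a pseudocount. Of 11 plastid regulators, SIGE was the 1 that differed, and CGA1, a GATA factor gene, gained by 0.67 in pifq and 1.05 in wt. The difference of CGA1, 0.38, passed the limit at 0.78 with a pseudocount of 0.01 of the median.

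**Figure D5:**
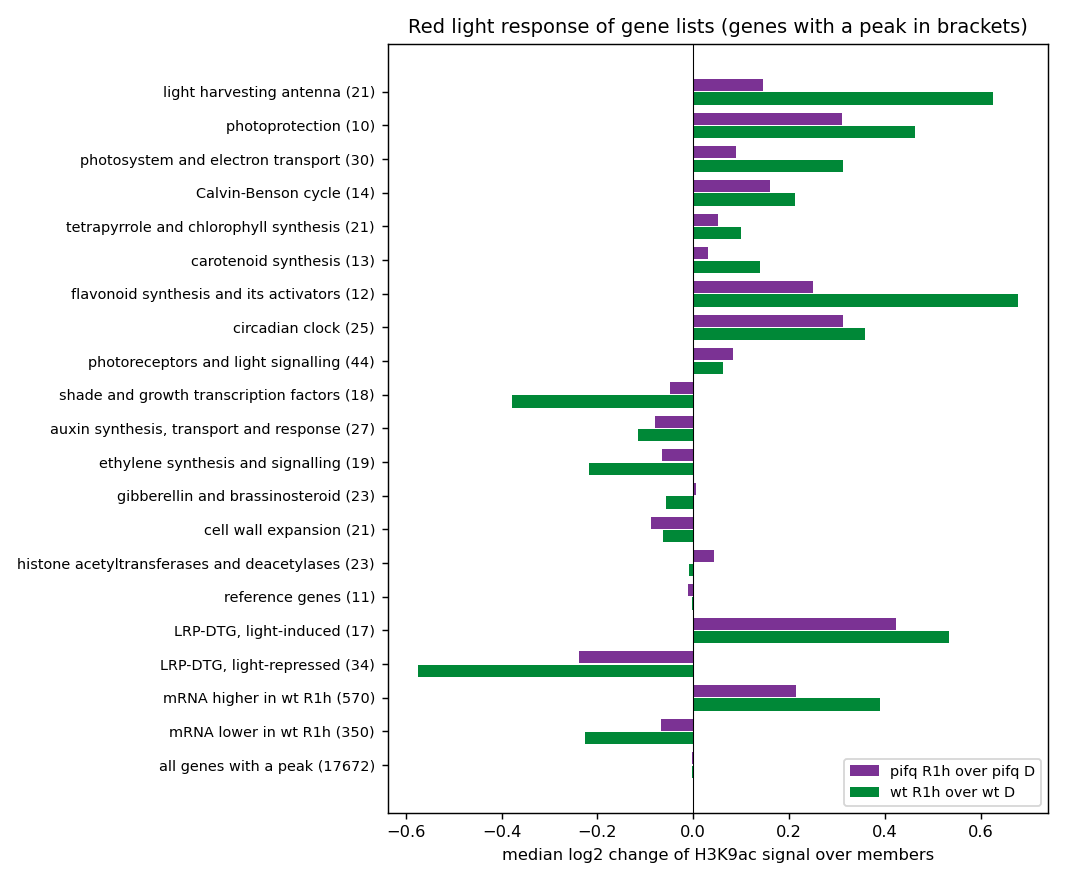
Median log2 change of H3K9ac signal after red light over the genes of each list (x axis) in pifq (purple, upper bar) and wt (green, lower bar), with the number of genes with a peak in brackets. Antenna genes stand at 0.15 in pifq and 0.63 in wt, circadian clock genes at 0.31 in pifq and 0.36 in wt, and shade and growth transcription factors at -0.05 in pifq and -0.38 in wt.

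Flavonoid genes, which make UV-absorbing pigments, gained in wt and in part in pifq. Of 12 genes, 4 differed upward and none downward, with a median change of 0.25 in pifq and 0.68 in wt. The median difference of 0.37 became 0.23 with a pseudocount of 0.5 of the median and 0.11 after quantile normalization. Under either, 3 genes differed upward. CHIL, a chalcone isomerase-like gene, had 0.504 in pifq R1h and 0.352 in pifq D, and 0.445 in wt R1h and 0.071 in wt D. 4CL3, a 4-coumarate CoA ligase gene, changed by 0.38 in pifq and 1.73 in wt. MYB12, an activator of flavonol synthesis, lay at the floor in pifq R1h, pifq D and wt D and had 0.121 in wt R1h, so its place among the 4 rests on a low value, and its difference of 1.24 became 0.01 after quantile normalization. FLS1, the flavonol synthase gene, was named after its values were seen, and it gained in both genotypes, by 1.16 in pifq and 1.56 in wt.

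Circadian clock genes had similar changes in pifq and wt. Of 25 genes, 7 gained in pifq and 8 in wt, no gene differed by 1.5-fold, and the median change was 0.31 in pifq and 0.36 in wt. The 5 genes that gained in both were PRR9, CDF1, GI, RVE1 and RVE8. CDF1, a repressor of CONSTANS, had 0.505 in pifq R1h and 0.282 in pifq D, and 0.502 in wt R1h and 0.209 in wt D. GI (GIGANTEA) gained by 0.68 in pifq and 0.85 in wt. LNK3, a transcriptional coactivator gene, had 1.014 in pifq R1h and 0.706 in pifq D, and 1.021 in wt R1h and 0.559 in wt D. Differences over the list ran from -0.30 for PRR3 to 0.54 for PRR9, and the median of 0.02 was 0.00 after quantile normalization.

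Light signalling genes were divided. Of 44 genes, 3 differed upward (BBX25, RPT2 and COL2) and 3 downward (BBX23, BBX29 and FHL), and the median difference was 0.03. Among them, 5 gained in pifq and 9 in wt. HY5, a bZIP factor that promotes photomorphogenesis, changed by 0.58 in pifq and 0.72 in wt, and its relative HYH by 0.61 in pifq and 0.68 in wt. The photoreceptor gene PHYB changed by 0.15 in pifq and -0.20 in wt, and PHYA by -0.10 in pifq and -0.18 in wt. FHL, which brings phytochrome A to the nucleus, changed by -0.46 in pifq and by -1.06 in wt. The loss of BBX23 came from low signals, with pifq R1h at the floor and 0.073 in wt R1h, against 0.431 in wt D.

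Some shade and growth transcription factor genes lost H3K9ac in wt, and none did in pifq. Of 18 genes, 4 differed downward (BEE3, PIL1, HFR1 and PAR1) and none upward, none lost in pifq and 7 in wt, and the median change was -0.05 in pifq and -0.38 in wt. HFR1, an atypical bHLH gene, had 0.443 in pifq R1h and 0.290 in pifq D, and 0.866 in wt R1h and 1.069 in wt D, so that the 2 genotypes moved toward each other. PAR1, a further atypical bHLH gene, had 0.803 in pifq R1h and 0.838 in pifq D, and 0.565 in wt R1h and 0.984 in wt D. HB-2, a homeodomain gene of the shade response, changed by -0.28 in pifq and -0.82 in wt, just within the limit. In 16 of the 18 genes the difference was negative. With a pseudocount of 0.5 of the median, HFR1 (-0.53) and PAR1 (-0.50) fell within the limit, which left 2 genes.

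Hormone and cell wall lists held single genes with a difference. Among 19 ethylene genes, ACS8 and ETR2 differed downward, and the median difference was -0.17, with ERS2 and EBF2 at -0.47 and -0.45. Among 27 auxin genes the extremes were YUC5 at -0.58 and SAUR14 at 0.51. Both passed the limit with a pseudocount of 0.01 of the median, at -0.89 and 0.59, and YUC5 also did after quantile normalization, at -1.10. In the gibberellin and brassinosteroid list, GA2OX1 and GA2OX8 differed upward among 23 genes. GA2OX8 had 0.156 in pifq R1h and 0.202 in pifq D, and 0.624 in wt R1h and 0.469 in wt D. Of 21 cell wall genes, XTH6 and XTH19 differed upward and XTR7 downward. XTR7 had 0.166 in pifq R1h and 0.222 in pifq D, and 0.310 in wt R1h and 0.657 in wt D. XTH6 was at the floor in wt D. CKX5, a cytokinin oxidase gene, changed by -0.14 in pifq and -0.45 in wt.

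Cell type markers were few among the peaks. Of 10 stomatal lineage markers, 4 had a peak and SPCH and TMM differed upward, with changes of -0.02 and 0.14 in pifq and of 0.66 and 0.80 in wt. The median difference of the 4 was 0.50, and 0.14 with the peak nearest the gene's start, and neither gene differed with a pseudocount of 0.5 of the median. None of the 6 root, 2 vascular and 5 epidermis or shoot meristem markers with a peak differed by 1.5-fold. Of the 2 seed and embryo markers with a peak, OLEO3, an oleosin gene, differed downward by -0.61, with 0.207 in pifq R1h and 0.227 in pifq D, and 0.568 in wt R1h and 0.974 in wt D. It fell within the limit with a pseudocount of 0.5 of the median (-0.48) and after quantile normalization (-0.54). The other, ABI5, a bZIP factor gene of abscisic acid signalling, had 0.523 in pifq R1h and 0.623 in pifq D, and 0.769 in wt R1h and 0.782 in wt D, with a difference of 0.20. Whether the share of these cell types differed between the groups was not tested.

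Lists taken from the study's own mRNA and PIF binding data were compared by membership only. Over all genes with a peak, 1.83% differed upward and 0.583% downward. Of 570 genes with a peak whose mRNA was higher in wt R1h, 76 differed upward (13.3%) and 3 downward (0.526%). Their median change was 0.21 in pifq and 0.39 in wt. In these, 87 genes gained in pifq and 196 in wt. Of 350 genes whose mRNA was lower in wt R1h, 1 differed upward (0.286%) and 29 downward (8.29%), with medians of -0.07 in pifq and -0.23 in wt. These mRNA lists come from wt, so they say nothing of the mRNA response in pifq. Of the genes bound by PIFs and misregulated in dark pifq, the 104 PIF-repressed genes had a median difference of 0.00. Of these, 4 differed upward (3.85%) and 2 downward (1.92%). The 156 PIF-induced genes had a median difference of -0.14, with 2 upward (1.28%) and 13 downward (8.33%).

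Light responsive PIF direct target genes (LRP-DTGs) are those of the PIF-bound genes whose mRNA changed within the hour of red light. The study chose them partly by mRNA in dark pifq, so they are not an independent sample for a comparison of the genotypes. Of 34 light-repressed LRP-DTGs, 9 differed downward and none upward, 3 lost in pifq and 16 in wt, and the median change was -0.24 in pifq and -0.58 in wt. AT5G02580 had 0.230 in pifq R1h and 0.372 in pifq D, and 0.176 in wt R1h and 0.851 in wt D. IAA19, an auxin response repressor gene, had 0.440 in pifq R1h and 0.566 in pifq D, and 0.614 in wt R1h and 0.848 in wt D, and its changes of -0.32 in pifq and -0.42 in wt were close. Of 17 light-induced LRP-DTGs, 3 differed upward (SIGE, RPT2 and AT1G60590) and none downward, 5 gained in pifq and 8 in wt, and the median change was 0.42 in pifq and 0.53 in wt. The wt D value of AT1G60590 lay at the floor, and its difference of 0.73 became 0.01 with a pseudocount of 0.5 of the median. BETA-OHASE 2, a beta-carotene hydroxylase gene, changed by 0.52 in pifq and 0.37 in wt. LHCB2.4 changed by 0.28 in pifq and 0.63 in wt.

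Promoters of the classes were searched on both strands for CACGTG and CACATG, from 250 bases before to 50 bases after the annotated start. The element can overlap itself on opposite strands, as in CACATGTG, and each promoter counts once. CACGTG was found in 12.0% of 343 genes that gained more in wt, 11.8% of 170 that gained in both, 13.8% of 29 that gained more in pifq, 16.9% of 65 lost more in wt, 5.0% of 20 lost in both, 7.41% of 54 lost more in pifq and 8.86% of the 17580 genes with a peak. In the 1000 bases before the start, it was found in 16.6% of the genes that gained more in wt and 16.0% of genes with a peak, so at this length the class stood at the background. At this length the share was 21.2% for gained in both, 34.5% for gained more in pifq and 26.2% for lost more in wt. It was 10.0% for lost in both and 13.0% for lost more in pifq. Within the class that gained more in wt, the share in the shorter window was 9.69% of 258 genes high in dark pifq and 18.1% of 94 that were not. In the 1000 bases, these shares were 15.5% and 19.1%. In the shorter window, CACATG was found in 12.5% of the genes that gained more in wt, 17.1% of those that gained in both, 13.8% of those lost more in wt and 12.7% of genes with a peak. In the 1000 bases, it was found in 35.9%, 41.2%, 53.8% and 38.1% of the same sets. For gained more in pifq, lost in both and lost more in pifq, the shares of CACATG in the shorter window were 20.7%, 20.0% and 13.0%. Their shares in the 1000 bases were 48.3%, 55.0% and 33.3%. In the sequences above, the first base of CACGTG lies 249 bases before the start in F3H, 67 in CHIL, and 244 and 172 in PRR9. The PIF binding element begins 170 bases before the start in F3H, 223 in SIGE, 233 in PRR9 and 15 in ACS8. A match is a description of the sequence, and binding was not measured in these data.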

How the data were processed

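The authors mapped the H3K9ac ChIP-seq reads with Bowtie2, found enriched regions with BayesPeak, compared them with DiffBind and, per the methods, gave each peak the gene with the nearest start site. By the starts of TAIR10.1 genes and pseudogenes, 81.8% of the entries with a gene in that annotation name the gene with the nearest start. As 1933 peaks are entered for more than 1 gene, not every entry can do so. Of the distinct peaks with such a gene, 91.4% had the nearest one among their entries. TAIR9 is the genome in the methods and TAIR10 that in the submitters' notes. The deposited signal is 1 number for each peak and group, per bp of peak, with similar column medians. How the authors scaled the groups and merged the 3 replicates is not given in the sources used here. Depth and replicate error are thus unknown. Input libraries were not used here. From these values, the log2 changes of wt and pifq and their difference were computed with Python 3.11.15, pandas 2.3.3 and numpy 2.4.6, after adding 0.0717. The pseudocount is 0.1 of the median of all values, 0.717. The plan named a description in place of a test where values are pooled, and this applied. The computation was tested on simulated data.

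Genes were named by rule. The rule takes the study's selected LRP-DTGs with IAA29, PIL2 and LHCB2.4, the 10 highest and 10 lowest differences, up to 8 genes per class and up to 4 members per list. The differences and classes require a signal at the median in at least 1 group. IAA29 and PIL2 had no peak. Other genes in lists of values, such as GI, HY5, FHL, PHYB and FLS1, were picked after their values were seen. The 25 lists hold 466 genes, of which 392 had a peak, and 9 were left out for want of a matching symbol and locus in the reference. Members, lists and limits were chosen with earlier results of these data known. TAIR10.1 coordinates were checked against the table: 99.7% of peaks overlap their assigned gene. It is not stated whether the table counts peak starts from 0 or 1. Alternatives were other pseudocounts, scalings, filters on low peaks, a 2-fold limit and 1 peak per gene. Each distinct peak counted once and no pseudocount were added after the data were seen.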

Additional observations from a re-analysis of the deposited data

Results flagged for a closer look

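At 15 entries of 14 genes, H3K9ac gained at least 1.5-fold in wt and was lost at least 1.5-fold in pifq, so that the genotypes changed in opposite directions after red light. No entry showed the reverse. The difference itself could not be tested, since each group has 1 pooled value. All 15 had little signal, and the highest of their 4 group values lay between 0.0985 and 0.519. At AT3G44630, the signal was 0.0464 in pifq R1h and 0.293 in pifq D, and 0.308 in wt R1h and 0.0812 in wt D.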

How the results depend on the processing

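No paired analysis was possible because the deposited columns are pooled over replicates and carry no replicate number, and no replicate could be left out for the same reason. The counts above rest on low signals. The entries with a change 1.5-fold higher in wt, 500, those with a lower one, 137, and those that gained in both, 177, became 80, 38 and 64 with a pseudocount of 0.5 of the median, 54, 29 and 27 without the 25.0% of peaks with the lowest mean, and 166, 32 and 52 with a 2-fold limit. Quantile normalization gave 216 higher and 270 lower in wt. With a pseudocount of 0.01 of the median, 744 were higher and 215 lower, and without a pseudocount, an alternative chosen after seeing the data, 774 and 221. With 1 peak per gene, 323 were higher. Equal medians (517 and 129), reference genes (500 and 131), leaving out floor values (463 and 134) and counting each distinct peak once (474 and 134) left both counts within 1.5 times. The cause of the shift under quantile normalization was not tested.

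Of 61 named genes past the limit, 59 stayed past it in the same direction with a pseudocount of 0.01 of the median, 29 with one of 0.5, 50 after quantile normalization and 61 under either other scaling. Of 78 named genes within the limit, 9 passed it with a pseudocount of 0.01 of the median, 12 without one, 2 after quantile normalization and none with a pseudocount of 0.5. The difference of BBX23, -1.26, was 2.31 without a pseudocount, where its pifq R1h value at the floor enters undamped. Of 27 list medians, 2 changed sign after quantile normalization and 1 with the peak nearest the start, and the 3 lay between -0.08 and 0.02 before.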

Other observations

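Peaks that lost more in pifq, and those that changed in opposite directions, were unevenly placed along the genome. The stretch of chromosome 3 from 15 to 18 Mb, chosen after its values were seen among bins of 1 Mb, holds 397 of the 19435 entries (2.04%). It holds 8 of the 15 entries that changed in opposite directions, 12 of the 57 that lost more in pifq, 27 of the 366 that gained more in wt and 35 of the 500 with a higher change in wt. These counts overlap, since by definition the 8 are part of the 12 and of the 27, and all of these are part of the 35. A higher change in wt was thus seen in 8.82% of the entries of this stretch and in 2.44% of all others, and a lower one in 1.01% and 0.699%. The median difference of responses was 0.09 in the stretch and 0.00 elsewhere, while the median log2 ratio of pifq WLc to wt WLc was 0.00 in the stretch and 0.01 elsewhere. The 12 entries with a larger loss in pifq had little signal, with the highest of their 4 values between 0.0985 and 0.332. Among 101 stretches of 3 Mb with at least 100 entries, most of which overlap others, this share was also high on chromosome 2 from 0 to 3 Mb, with 30 of 359 entries (8.36%), 3 of them in opposite directions, and on chromosome 1 from 12 to 15 Mb, with 11 of 165 (6.67%). The stretch of chromosome 3 is therefore not alone. LHCA4 lies in it. No cause was tested.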
